A study of Mus musculus with 9 samples.

Results

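Neurospheres of adult olfactory bulb stem cells (aOBSCs) that received FGF-2 and EGF every 1 day are the control condition (Ctr) of this series, and their expression profile is described here on its own. The 3 arrays titled as control aOBSCs were taken from the 9 arrays of the series, and the 6 arrays of cultures fed less often were not used. Gene expression had been measured in whole neurospheres on Affymetrix Mouse Genome arrays, which read each transcript with sets of short oligonucleotide probes (probe sets). All Ctr cultures shared the same treatment, a serum-free medium with both growth factors added daily, and carried no transgene or deleted gene. The study used cells of adult CD1 or C57Bl/6 mice, and it gives ages of 7 and 15 months for the cultures that were arrayed. Which age, strain and number of animals stand behind each Ctr array is not given in the sources used here. The design text calls the 3 arrays biological replicates but does not say whether they came from separate primary cultures, so the SD given below measures the spread between these 3 arrays.

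FGF-2 and EGF are the mitogens that allow neural stem and progenitor cells to divide in suspension as neurospheres, floating balls of cells descended from a few founders. Both ligands act through receptor tyrosine kinases, which switch on the Ras, RAF and ERK cascade and the PI3K and AKT pathway. A neurosphere is a mixed population in which stem cells lie beside more restricted progenitors and some differentiating cells. Sox2, Olig2, Fabp7 and Egfr are the genes by which such cells are commonly recognised: Sox2 and Olig2 encode transcription factors of neural stem cells and glial progenitors, Fabp7 a lipid-binding protein of radial glia, and Egfr the receptor of EGF.

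Levels are the log2 signals that the authors obtained with GCRMA, a method that subtracts a background predicted from the probe sequence and places transcripts without signal at a common lowest value. Where a gene had several probe sets, the one with the highest Ctr mean was taken. A mean of 10 or more was called high, a mean from 4 to under 10 moderate, and a mean under 4 near the floor. Of 18193 genes, 1291 (7.10%) were high, 8059 (44.3%) moderate and 8843 (48.6%) near the floor, and 4809 genes did not leave the lowest value, 2.27, on any array. The median over all genes was 4.33. Each list count given below is to be read beside these shares over all genes. The arrays agreed closely: their pairwise Pearson correlations lay between 0.9956 and 0.9964 across the 18234 probe sets with a mean of at least 4, which is a description across probe sets and not across independent samples. Of the probe sets of an array, those at its lowest value made up 35.2% to 35.8%, and the third quartile was 6.46 to 6.51. RNA integrity was checked on the Gapdh controls: the signal toward the 3' end less that toward the 5' end was -0.31 ± 0.030 (SD, n = 3). The same difference was 0.93 ± 0.030 on the Actb controls, whose signal was thus higher toward the 3' end on all 3 arrays. Because probes bind with different strength, a level places a gene in a band of signal and does not give its RNA amount relative to another gene.

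**Figure D1:**
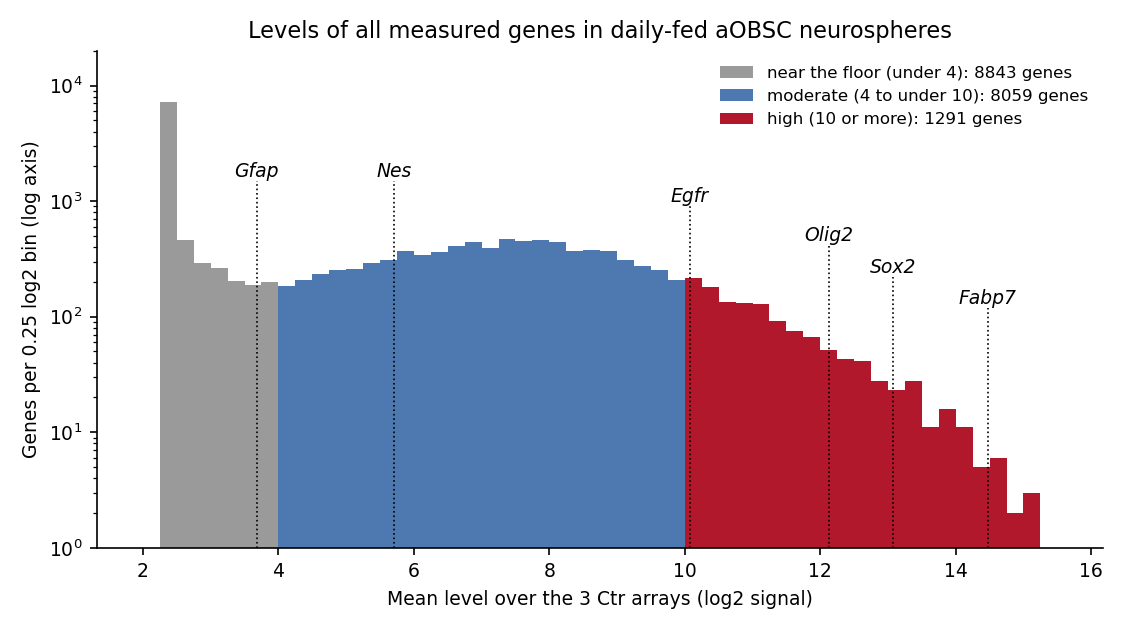
Histogram of the mean level of every measured gene over the 3 Ctr arrays (x axis, log2 signal; y axis, genes per bin on a log axis), coloured by band, with dotted lines at 6 named genes. Fabp7 at 14.47, Sox2 at 13.07, Olig2 at 12.13 and Egfr at 10.08 lay in the high band, Nes at 5.71 in the moderate band and Gfap at 3.68 near the floor.

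All 4 markers of the culture were high. They belong to a list chosen with earlier results of these data known, so their levels do not test the label of the samples. Sox2, the transcription factor that keeps neural stem cells undifferentiated, read 13.07, 13.05 and 13.09 on the 3 arrays (mean 13.07 ± 0.022, SD, n = 3, rank 99 of 18193). Olig2, the basic helix-loop-helix factor of glial and transit-amplifying progenitors, read 12.14, 12.14 and 12.11 (12.13 ± 0.017, rank 237). Fabp7, also called brain lipid-binding protein, read 14.45, 14.49 and 14.48 (14.47 ± 0.021, rank 12). These 3 genes have 1 probe set each, and the 3 arrays gave nearly the same value for each of them. Egfr read 10.09, 10.06 and 10.08 (10.08 ± 0.014, rank 1217), just inside the high band. Its 7 probe sets spread from 2.27 to 10.08, with the next at 9.07, so its band rested on 1 probe set, and with the mean over all of them its level was 5.71.

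The promoters of these markers are shown because the bands differed in the sequence at the start of their genes. A promoter here is the window from 250 bases before to 50 bases after the annotated start, read from RefSeq (GRCm38.p6) in the direction of the gene. Capitals mark every CpG, a C followed by a G. The windows are those of Sox2 (chr3:34649745-34650044, plus strand), Olig2 (chr16:91225300-91225599, plus strand), Egfr (chr11:16751953-16752252, plus strand), Fabp7 (chr10:57784673-57784972, plus strand), Gfap (chr11:102897151-102897450, minus strand) and Cx3cr1 (chr9:120068247-120068546, minus strand). Gfap, a filament of astrocytes, and Cx3cr1, the fractalkine receptor of microglia, were near the floor and are shown for contrast.
Sox2: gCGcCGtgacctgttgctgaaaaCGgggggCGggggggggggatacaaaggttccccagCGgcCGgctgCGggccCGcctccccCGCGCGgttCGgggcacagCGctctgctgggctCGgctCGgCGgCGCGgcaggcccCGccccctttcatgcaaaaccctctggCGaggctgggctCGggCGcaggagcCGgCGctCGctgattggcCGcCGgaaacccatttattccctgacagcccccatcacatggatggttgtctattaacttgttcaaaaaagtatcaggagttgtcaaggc
Olig2: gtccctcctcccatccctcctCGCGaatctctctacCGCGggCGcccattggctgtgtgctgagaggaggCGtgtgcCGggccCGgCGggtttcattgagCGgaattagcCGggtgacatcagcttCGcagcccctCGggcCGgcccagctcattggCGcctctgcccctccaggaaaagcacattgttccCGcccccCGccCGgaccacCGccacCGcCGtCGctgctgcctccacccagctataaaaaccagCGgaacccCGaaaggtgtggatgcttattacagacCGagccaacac
Egfr: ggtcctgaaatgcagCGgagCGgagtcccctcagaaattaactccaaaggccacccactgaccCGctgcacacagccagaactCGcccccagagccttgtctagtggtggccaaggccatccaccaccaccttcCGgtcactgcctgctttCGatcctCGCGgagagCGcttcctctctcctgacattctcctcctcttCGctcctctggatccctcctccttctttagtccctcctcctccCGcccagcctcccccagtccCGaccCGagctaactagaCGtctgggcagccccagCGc
Fabp7: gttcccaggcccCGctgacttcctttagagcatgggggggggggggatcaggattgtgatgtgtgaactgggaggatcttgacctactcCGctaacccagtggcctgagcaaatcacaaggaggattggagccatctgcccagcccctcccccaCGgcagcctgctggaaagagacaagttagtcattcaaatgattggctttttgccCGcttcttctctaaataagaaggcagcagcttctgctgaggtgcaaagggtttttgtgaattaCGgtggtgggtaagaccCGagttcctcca
Gfap: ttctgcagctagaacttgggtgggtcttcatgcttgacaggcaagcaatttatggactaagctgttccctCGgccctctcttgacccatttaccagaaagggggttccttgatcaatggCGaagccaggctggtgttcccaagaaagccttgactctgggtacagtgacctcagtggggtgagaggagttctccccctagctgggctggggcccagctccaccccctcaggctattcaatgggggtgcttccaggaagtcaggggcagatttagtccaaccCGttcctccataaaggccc
Cx3cr1: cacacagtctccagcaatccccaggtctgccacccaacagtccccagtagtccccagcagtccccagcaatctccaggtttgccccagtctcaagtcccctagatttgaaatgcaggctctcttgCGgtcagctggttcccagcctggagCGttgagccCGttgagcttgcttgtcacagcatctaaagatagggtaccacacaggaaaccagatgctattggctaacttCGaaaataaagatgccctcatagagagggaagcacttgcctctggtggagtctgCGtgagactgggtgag

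The Sox2 window held 27 CpGs, that of Olig2 25 and that of Egfr 15, whereas the windows of Fabp7, Gfap and Cx3cr1 held 6, 3 and 5. Fabp7 was thus among the genes of highest signal with a window as poor in CpG as those of the genes near the floor. Across 11862 protein-coding genes with a window, the median number of CpGs was 23 among high genes, 22 among moderate genes and 8 among genes near the floor, and it was 6 among genes at the lowest value on all 3 arrays. Windows with fewer than 5 CpGs made up 1.92% of the high, 2.88% of the moderate and 33.5% of the near-floor genes. High and moderate genes thus differed little in this respect, and the near-floor genes stood apart from both. The GC box GGGCGG (either strand), the motif bound by SP factors, which can overlap a CpG count since it contains CG, was held by 71.0% of the high, 72.6% of the moderate and 42.1% of the near-floor genes, beside 59.4% of all 11862 genes. Counted by window, it lay in 35.7% of the 32851 windows of the whole table, which also holds genes not analysed here and is not on the same base. The TATA box TATAAA (either strand) was held by 9.83%, 7.76% and 15.7% of the genes of these bands, beside 11.3% of all 11862 genes, and it lay in 13.6% of the windows of the whole table. For a gene with several annotated starts, CpGs were averaged over its windows and a motif was counted if any window held it. A match is a description of these letters and not a site of binding. Genes on chromosomes 8, 14, 15 and 18 were left out so that at least 82.0% of the genes of each band had a window.

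Of the 21 markers of neural stem and progenitor cells analysed here, 10 were high, 9 moderate and 2 near the floor, with a median of 9.00 beside 4.33 over all genes. Vim, the intermediate filament of radial glia and many cultured cells, read 15.01, 14.99 and 14.76 (14.92 ± 0.14) and was the fourth gene by signal. All 3 of its probe sets were high, the lowest at 13.84. Ptprz1, a receptor phosphatase of radial glia and glial progenitors, read 13.12, 13.00 and 13.00 (13.04 ± 0.067). The matrix protein tenascin C (Tnc) read 12.19, 12.24 and 12.29 (12.24 ± 0.049). The glutamate transporter of radial glia and astrocytes, Slc1a3 (GLAST), read 11.98, 12.25 and 12.10 (12.11 ± 0.13). Hes5, a Notch target that holds back neuronal differentiation, read 11.24, 11.38 and 11.39 (11.33 ± 0.082) by a probe set marked as able to bind related transcripts, and 9.49 by its other probe set. Bmi1, a Polycomb protein needed for self-renewal, read 10.75, 10.84 and 10.75 (10.78 ± 0.050).

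The moderate stem cell markers were Msi2, Sox9, Hes1, Sox3, Pax6, Sox1, Nes, Msi1 and Nr2e1. Sox9, a factor of radial glia and astrocytes, had a mean of 8.67, and Pax6, a factor of radial glia and of olfactory bulb interneurons, of 7.27. Nes, which encodes nestin, the usual filament marker of neural stem cells, read 5.45, 5.77 and 5.93 (5.71 ± 0.25), and its other probe sets had means of 3.31 and 2.27. The signal of Nes was thus in the lower part of the moderate band, and it had the largest SD of the list. Prom1 (CD133) and Fut4, whose enzyme makes the surface sugar known as LeX, remained at the lowest value, 2.27, on each array. Of these 21 members, 5 fell near the floor when the mean over all probe sets of a gene was used in place of the highest probe set.

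**Figure D2:**
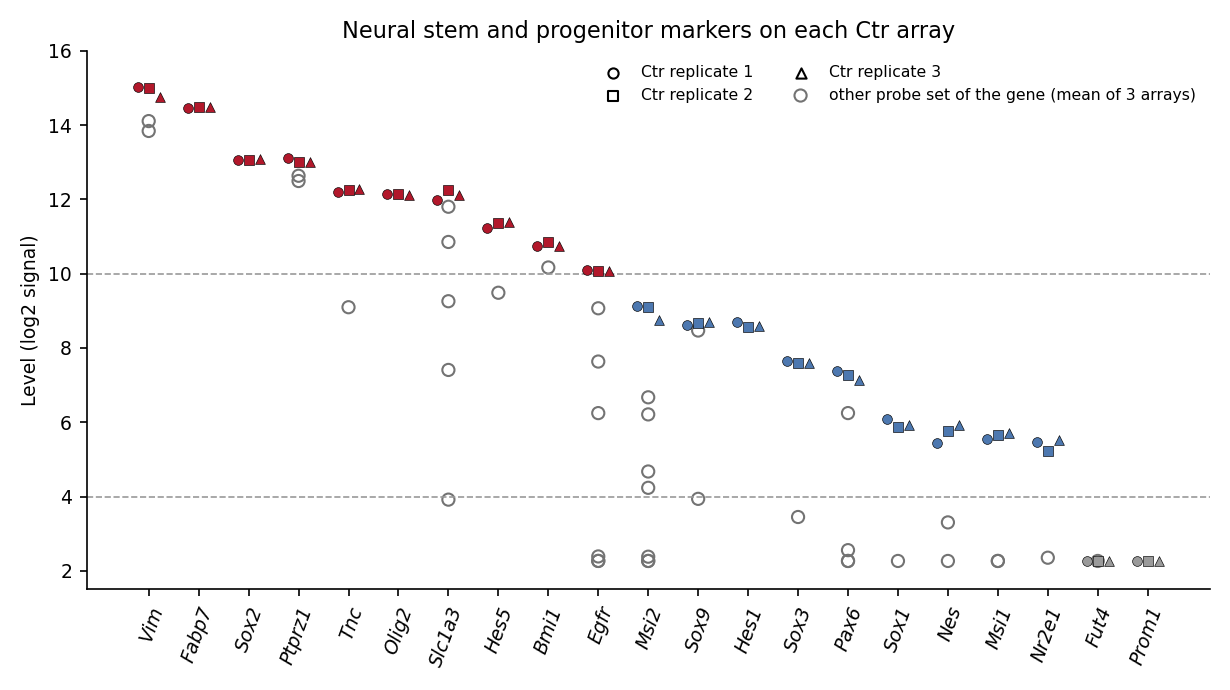
Levels of the 21 neural stem and progenitor markers (y axis, log2 signal) on each Ctr array (filled symbols, coloured by band: red high, blue moderate, grey near the floor), with the mean of each gene's other probe sets as open circles and dashed lines at 4 and 10. The arrays nearly coincide for each gene, from Vim at 14.92 to Prom1 at 2.27, whereas the probe sets of Egfr spread from 2.27 to 10.08.

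Of the 17 astrocyte markers, 6 were high, 9 moderate and 2 near the floor, with a median of 8.12. Several are also made by radial glia and neural stem cells. Aldoc, the brain form of the glycolytic enzyme aldolase, read 13.49, 13.46 and 13.46 (13.47 ± 0.014), and Apoe, the lipid carrier of glia, read 13.26, 13.23 and 13.34 (13.28 ± 0.055). Gja1, which encodes the gap junction protein connexin 43, read 12.18, 12.31 and 12.21 (12.23 ± 0.068). Glutamine synthetase (Glul, 10.64), the sodium pump subunit Atp1b2 (10.44) and the bicarbonate transporter Slc4a4 (10.19) were high as well. In the moderate band lay the glutamate transporter Slc1a2 (8.53), the folate enzyme Aldh1l1 (8.12), the potassium channel Kcnj10 (7.94), S100b (7.24) and the water channel Aqp4 (5.51). The other probe set of Aldh1l1 was at 2.27. Gfap, a defining marker, was near the floor: it read 3.49, 3.77 and 3.77 (3.68 ± 0.16), and its other 2 probe sets had means of 3.07 and 2.44. The study counted GFAP-positive cells in aOBSC neurospheres by immunostaining, which reads protein and not RNA. Gjb6, which encodes connexin 30, was at 2.27 on each array. The profile therefore held high or moderate signal for 15 of 17 astrocyte markers beside near-floor signal for Gfap and Gjb6.

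The 8 markers of oligodendrocyte precursors divided between the bands, with 1 high, 4 moderate, 3 near the floor and a median of 6.13. Olig1, the partner factor of Olig2, read 13.84, 13.77 and 13.72 (13.78 ± 0.062). Bcas1, a marker of early oligodendrocytes, had a mean of 8.74, Nkx2-2, a transcription factor of the lineage, of 7.98, Cspg4, the proteoglycan NG2, of 7.44 and Gpr17, an orphan receptor of committed precursors, of 4.83. The other probe sets of Bcas1 were near the floor, at 2.55 and 2.27. Pdgfra, the PDGF receptor that defines these precursors, read 3.80, 4.05 and 3.80 (3.88 ± 0.15). Sox10, the factor of the whole oligodendrocyte lineage, had means of 2.62, 2.27 and 2.27 in its 3 probe sets. High signal for Olig1 and Olig2 was thus found together with near-floor signal for Pdgfra and Sox10. Among 8 genes of myelinating oligodendrocytes, 7 were near the floor, including Mbp, Mog and Mag. The exception was Cnp, an enzyme of myelin, at 10.85 by a probe set marked as able to bind related transcripts, and its other probe sets had means of 6.22 and 5.82.

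Of the 27 markers of neuroblasts and neurons, 22 were near the floor and 2 were high, with a median of 2.28. The share near the floor over all genes was 48.6%. Dcx, the microtubule protein of migrating neuroblasts, had a mean of 2.27 in each of its 4 probe sets, and Tubb3, the neuronal tubulin, had a mean of 2.37. Genes of the olfactory bulb interneurons, Th (dopamine synthesis), Gad2 and Calb2, had means of 2.27, 2.27 and 3.89. Genes of glutamatergic neurons, Tbr1, Eomes, Slc17a6 and Slc17a7, all had means of 2.27. Against these stood Map2, a microtubule-associated protein of dendrites, which read 12.16, 12.13 and 12.17 (12.16 ± 0.022) with its other 3 probe sets between 7.61 and 9.70. Gad1, the other enzyme of GABA synthesis, read 10.24, 10.32 and 10.15 (10.23 ± 0.086) and 7.97 by its other probe set. The surface protein Cd24a (9.87), the RNA-binding protein Elavl4 (7.27) and calbindin, Calb1 (4.44), were moderate. The other probe sets of Calb1 were at 2.27. Thus Gad1 and Map2 carried signal without that of Gad2, Dcx or Tubb3. With the mean over all probe sets, no neuronal marker was high.

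Markers of the other cells that dissociated bulb tissue could carry over were near the floor, with few exceptions. Over all genes, 48.6% were near the floor, and 66.2% of the genes with 1 probe set. All 9 endothelial genes, among them Pecam1, Cdh5 and Cldn5, had means of at most 2.32. Of 12 genes of microglia and macrophages, 11 were near the floor, and the defining markers Aif1, Cx3cr1, Itgam, P2ry12 and Tmem119 stood at 2.27. The remaining gene, the lysosomal protein Cd68, read 7.66, 7.98 and 7.83 (7.82 ± 0.16). Of 10 genes of pericytes and fibroblasts, 9 were near the floor, and Acta2, smooth muscle actin, was at 4.09. Foxj1, the master factor of motile cilia, was at 4.10 and was the only 1 of 7 ependymal genes to exceed 4, reading 4.27, 3.87 and 4.15. Among olfactory sensory neuron genes, Omp had a mean of 2.28, while Gnal (4.37) and Adcy3 (4.28) lay just above 4. Cdh19 (4.31) did so among 4 genes of olfactory ensheathing cells, the glia of the olfactory nerve, and varied from 4.03 to 4.67. Both red blood cell genes, Hba-a1 and Alas2, were at 2.27. In RNA from whole neurospheres, fewer cells of a type and less RNA per cell cannot be told apart.

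**Figure D3:**
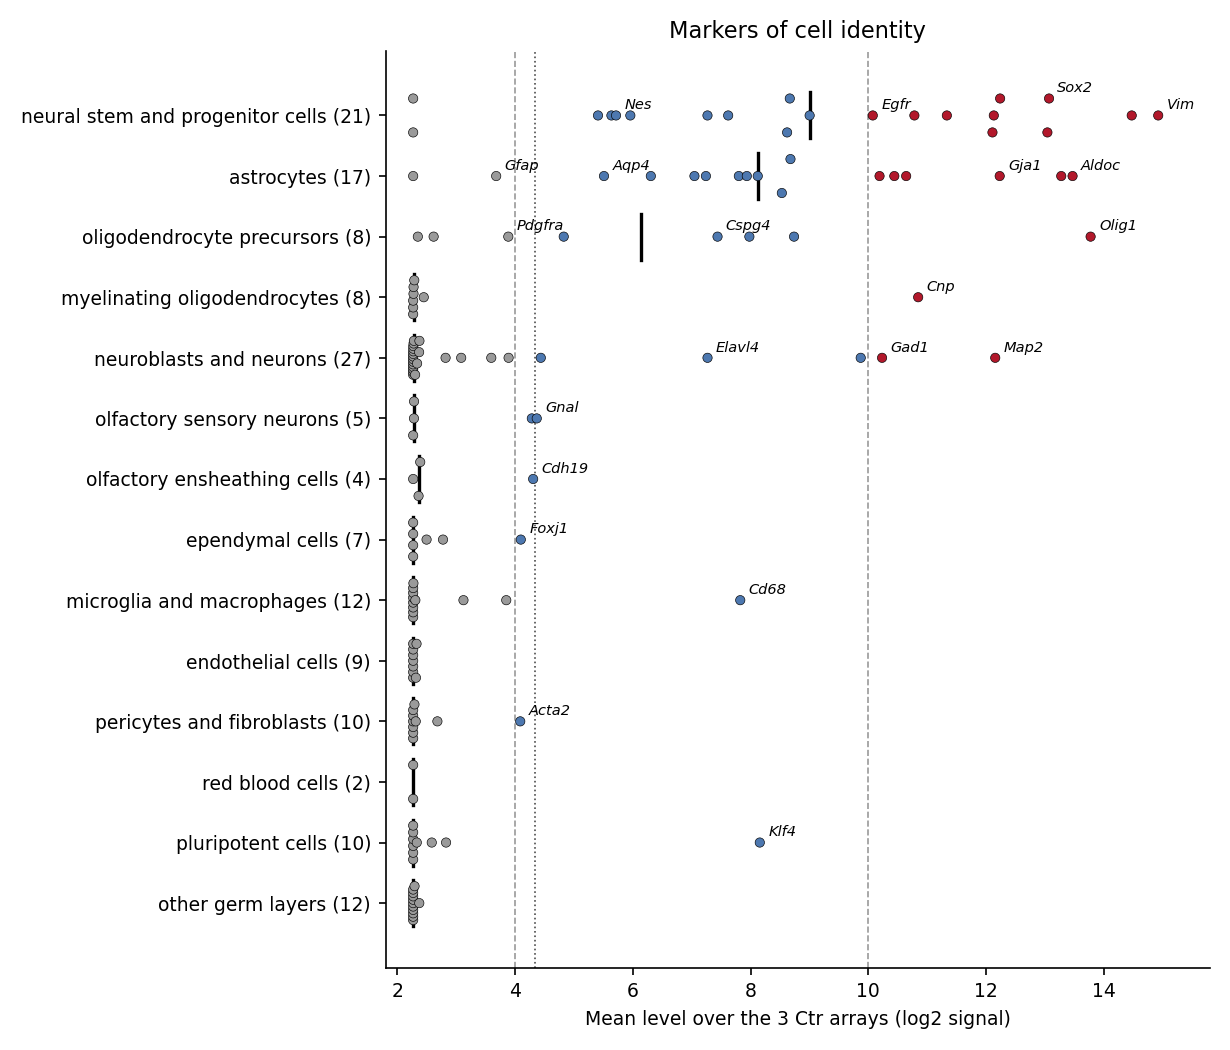
Mean level over the 3 Ctr arrays (x axis, log2 signal) of every marker in 14 lists of cell identity, 1 point a gene (red high, blue moderate, grey near the floor; points of like value are spread vertically), with the number of genes in brackets, the list median as a black bar, dashed lines at 4 and 10 and a dotted line at the median of all genes, 4.33. The medians of stem cell and astrocyte markers, 9.00 and 8.12, lie in the moderate band, and those of the neuronal, vascular and immune lists lie at 2.27 or 2.28.

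Genes of pluripotent cells and of other germ layers were likewise near the floor. Of 10 pluripotency genes, 9 were there, including Pou5f1 (2.27) and Nanog (2.33), and Klf4, a zinc finger factor also made in many adult cells, was at 8.16. All 12 genes of endoderm and mesoderm, such as Sox17, Gata4, Afp and Myod1, had means of at most 2.37. Over all genes, 48.6% were near the floor, and 66.2% of the genes with 1 probe set. In each of these lists, 6 members have 1 probe set.

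Most listed transcription factors that give neural cells a regional identity were near the floor. Of 17 forebrain factors, 5 were moderate and 12 (70.6%) near the floor, beside 48.6% over all genes. Among all genes with 1 probe set the share was 66.2%, and 12 of the 17 factors have 1 probe set. The forebrain count was thus close to that share. Zic1 (9.71), Meis2 (8.97), Pax6 (7.27), Lhx2 (7.21) and Emx2 (4.73) carried signal. Dlx1 and Dlx2, Gsx1 and Gsx2, Sp8 and Otx2, which mark the ventral forebrain, its interneuron lineages or the anterior brain, had means under 4. Dlx1 read 3.68, 3.00 and 4.11 (3.59 ± 0.56), so it passed 4 on the third array, and it varied more than any other member of the list. Of 8 midbrain and hindbrain factors, En2 alone passed 4, at 4.11 on all 3 arrays. Of 33 Hox genes, which pattern the hindbrain and spinal cord, 30 (90.9%) were near the floor, and 22 of the 33 have 1 probe set. The others belong to the Hoxa cluster. Hoxa5 read 8.02, 7.93 and 7.82 (7.93 ± 0.0995), and its other probe set had a mean of 5.95. Hoxa3 had a mean of 5.13 and Hoxa4 of 4.32, and the other 3 probe sets of Hoxa3 were near the floor at 2.27 to 2.39.

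The Sox family held 3 high, 9 moderate and 7 near-floor genes among 19. Beside Sox2, the high members were Sox4, which read 13.71, 13.79 and 13.73 (13.74 ± 0.039), and Sox11, which read 10.27, 10.33 and 10.09 (10.23 ± 0.12). Both encode factors of the SoxC group that act in progenitors and immature neurons. The 8 probe sets of Sox4 ranged from 2.27 to 13.74. Sox5 (7.84), Sox6 (8.66), Sox8 (6.93) and Sox21 (6.93) were moderate, and the endothelial factors Sox7, Sox17 and Sox18 had means of at most 2.29. Among 14 intermediate filament genes, Vim and Nes were the only ones above 4, and the neurofilaments Nefl, Nefm and Nefh had means of at most 2.37.

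Most receptors of the added growth factors carried signal, and most genes of the corresponding ligand families did not. Among the EGF receptor family, Egfr was high, while Erbb2 (2.64), Erbb3 (2.27) and Erbb4 (2.79) were near the floor. Erbb2 and Erbb4 have 1 probe set each. Among the FGF receptors, Fgfr3 read 8.60, 8.74 and 8.69 (8.68 ± 0.069), Fgfr1 read 8.46, 8.36 and 8.33 (8.38 ± 0.067), and Fgfr2 read 5.04, 5.28 and 5.28 (5.20 ± 0.14). Fgfr4 stood at 2.27. The 3 receptors with signal had further probe sets at lower levels, Fgfr3 at 4.46, Fgfr1 at 7.59 and 2.79, and Fgfr2 at 5.01 and 2.27.

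Of 10 EGF family ligands, 2 were moderate and 8 (80%) near the floor. Over all genes, 48.6% were near the floor, and 66.2% of the genes with 1 probe set. Of these 10 ligands, 4 have 1 probe set. Hbegf, heparin-binding EGF, read 8.57, 8.33 and 8.37 (8.42 ± 0.13), and Tgfa, which also binds the EGF receptor, read 4.73, 5.31 and 4.96 (SD 0.29). Egf itself had a mean of 2.74, and the neuregulins Nrg1 to Nrg4 had means between 2.27 and 3.03. Of 22 FGF family ligands, 19 (86.4%) were near the floor, and 10 of the 22 have 1 probe set. Fgf1, which binds all FGF receptors, read 8.27, 8.41 and 8.48 (8.38 ± 0.11), with its other probe sets at 7.90 and 6.65. Fgf11 (5.61) and Fgf13 (4.88) were moderate and encode FGFs that stay within the cell. Fgf2 has 1 probe set, and it stood at 2.27 on all 3 arrays. The study measured mRNA of Fgf2 and Egf in Ctr aOBSCs by RT-qPCR, so their near-floor levels here do not show absence. Heparan sulfate, which presents FGFs to their receptors, was represented by 15 genes of carriers and enzymes, of which 13 were moderate and none high (median 8.11). The carriers syndecan 4 (Sdc4, 9.82), syndecan 1 (Sdc1, 8.85) and glypican 6 (Gpc6, 8.52) and the sulfotransferase Hs2st1 (8.65) were among them.

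The genes of the Ras and ERK cascade itself were mostly moderate, and a part of its feedback and target genes was high. Of 12 core genes analysed here, 1 was high, 11 were moderate and none was near the floor (median 8.13). Ptpn11, the phosphatase SHP2 that relays receptor signals, had a mean of 10.02 (3.17 by the median over its probe sets), the kinase Map2k1 9.77, the adaptor Gab1 9.75 and Grb2 8.01. Of 22 feedback and target genes, 9 were high, 10 moderate and 3 near the floor, with a median of 9.68. Fos, an immediate early factor, read 12.66, 12.61 and 12.69 (12.65 ± 0.039), and Egr1, another, read 12.59, 12.61 and 12.61 (12.60 ± 0.0095). Cyclin D1 (Ccnd1), which drives cells into S phase, read 12.56, 12.60 and 12.47 (12.55 ± 0.067), with all 3 of its probe sets high.

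The inhibitors of the cascade were among those targets. Spry2, a Sprouty inhibitor of receptor signalling, read 12.24, 12.34 and 12.24 (12.28 ± 0.057), while its other probe set was at 2.27. Dusp6, the phosphatase that inactivates ERK, read 12.12, 11.98 and 12.06 (12.05 ± 0.073). Etv5, an ETS factor downstream of FGF, read 11.23, 11.23 and 11.26 (11.24 ± 0.019). Jun (10.67), Spry4 (10.32) and Ier3 (10.29) were high too, and Spry4 varied most in the list, from 10.06 to 10.50. Spry1 (9.86), Spred1 (9.76), Phlda1 (9.61), Myc (8.86) and Etv4 (6.52) were moderate. Dusp4 (3.51), Spry3 (3.09) and Fosl1 (2.29) were near the floor, so that within the Sprouty and DUSP families some members carried high signal and others none above 4. With the mean over all probe sets, 6 of the 22 genes were high.

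**Figure D4:**
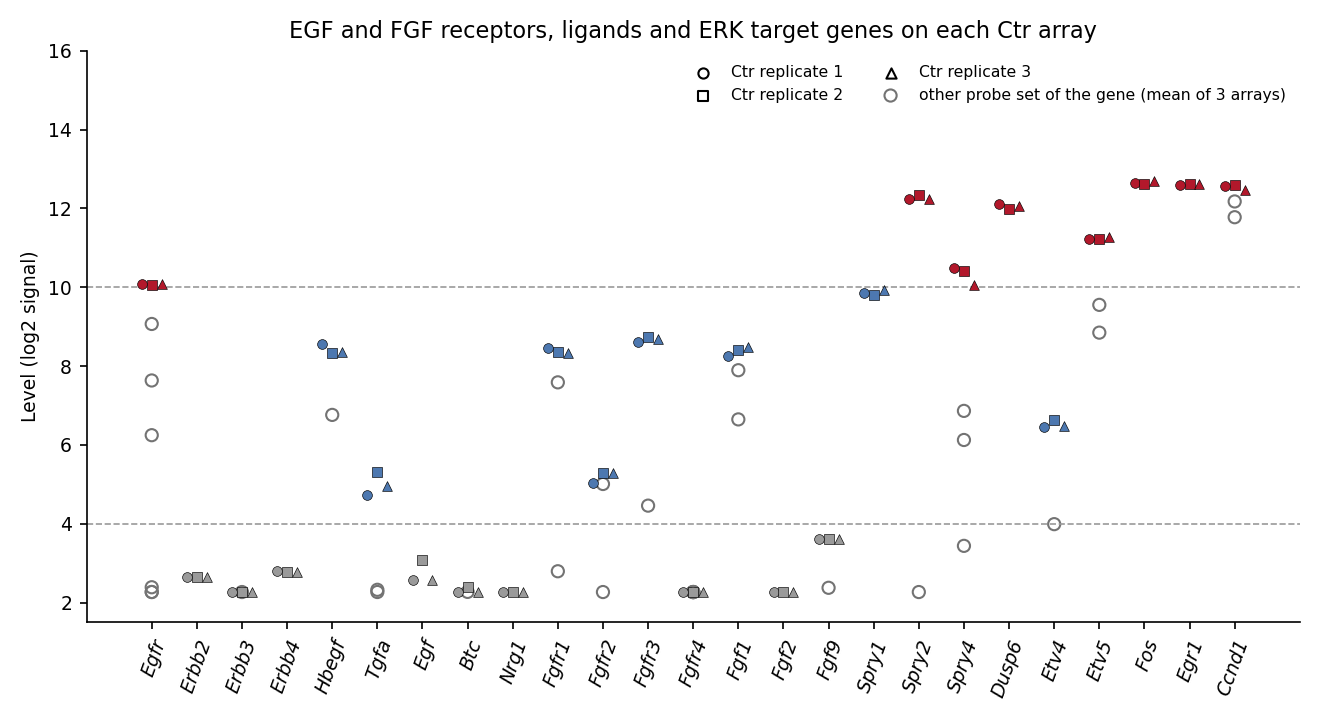
Levels (y axis, log2 signal) of EGF and FGF receptors, selected ligands and ERK feedback and target genes on each Ctr array (filled symbols; red high, blue moderate, grey near the floor), with the means of other probe sets as open circles and dashed lines at 4 and 10. Egfr at 10.08 and Fgfr3 at 8.68 carry signal, Erbb2, Erbb3, Erbb4, Egf and Fgf2 lie under 4, and Fos, Egr1, Ccnd1, Spry2 and Dusp6 lie above 12.

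Of 32 receptor tyrosine kinases, Egfr included, 3 were high, 10 moderate and 19 (59.4%) near the floor, beside 48.6% near the floor over all genes. Ntrk2, the BDNF receptor TrkB, read 10.15, 10.17 and 10.19 (10.17 ± 0.022), and its 8 probe sets ranged from 2.27 to 10.17. Ddr1, a collagen receptor, read 13.43, 13.73 and 13.67 (13.61 ± 0.16) by a probe set marked as able to bind related transcripts, and its 8 probe sets ranged from 2.34 to 13.61, so its level is uncertain. Ntrk3 (8.57), the insulin receptor Insr (8.02), Igf1r (7.27) and the TAM receptors Mertk, Tyro3 (6.84) and Axl (5.96) were moderate. The VEGF receptors Flt1, Kdr and Flt4, the PDGF receptors, Kit, Met and Ret were near the floor.

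Of 16 other growth factor genes, 2 were high, 5 moderate and 9 near the floor. Pleiotrophin (Ptn), a heparin-binding factor that binds the Ptprz1 receptor, read 13.43, 13.40 and 13.24 (13.36 ± 0.10). Vegfa, the endothelial growth factor, read 11.89, 11.92 and 11.54 (11.78 ± 0.21) and was lowest on the third array. Vegfb (7.84), Vegfc (7.55), Pdgfc (7.43), Pdgfa (6.52) and Bdnf (5.85) were moderate. Igf1, Igf2, Gdnf, Hgf and Cxcl12 were near the floor. Moderate means for Pdgfa and Pdgfc were thus found beside means under 4 for both PDGF receptors, although Pdgfra read 4.05 on the second array.

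In the pathways that steer stem cells toward glia, the genes above 4 were mainly receptors and nuclear factors. Of 31 genes of the BMP and TGF-beta pathway, which favours astrocytes, 3 (9.68%) were high, 16 moderate and 12 (38.7%) near the floor. Over all genes, 7.10% were high and 48.6% near the floor, so the share of high genes was close to that of all genes. Id2, an inhibitor of differentiation factors, read 11.56, 11.59 and 11.46 (11.54 ± 0.067). Bmpr2, a BMP receptor, had a mean of 10.76 and Smad4, the shared signal carrier, of 10.35. The ligands Bmp2, Bmp4, Bmp5 and Bmp6 had means of at most 2.31, and Nog, the secreted BMP antagonist noggin, was at 2.27. Bmp7 (6.56) and Tgfb2 (9.61) were the BMP and TGF-beta ligands with signal above 4. Of 9 genes of the gp130 cytokine pathway, which also favours astrocytes, Stat3 was high at 10.31, and the receptor chains Lifr (9.22) and Il6st (8.50) were moderate.

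Of 23 Notch pathway genes, 2 (8.70%) were high, 15 moderate and 6 (26.1%) near the floor, beside 7.10% high and 48.6% near the floor over all genes. Adam10, the protease that cuts Notch, had a mean of 11.57. The receptors Notch1 (8.94), Notch3 (7.93) and Notch2 (7.54) and the ligands Jag1 (9.01), Dll3 (5.92) and Dll1 (5.45) were moderate, whereas Notch4, Jag2 and Dll4 were near the floor. Of 21 Wnt receptors and nuclear factors, 1 (4.76%) was high, 12 moderate and 8 (38.1%) near the floor. The shares of high genes in both lists were thus close to that of all genes. Ctnnb1, beta-catenin, read 12.88, 12.90 and 12.94 (12.91 ± 0.028), while Lef1, a nuclear partner of beta-catenin, was at 2.27 and Axin2, a common Wnt target, at 5.62. Of 13 hedgehog pathway genes, 9 (69.2%) were near the floor. Gas1, a surface co-receptor, read 12.26, 12.03 and 12.07 (12.12 ± 0.12), the receptor Ptch1 had a mean of 9.30 and the transducer Smo of 8.13. Shh and the target gene Gli1, each with its level at 2.27, gave no signal.

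Genes of cell division carried signal more often than all genes did. All 19 genes of DNA replication and mitosis exceeded 4, 8 of them (42.1%) in the high band, with a median of 9.71. Over all genes, 7.10% were high and 48.6% near the floor. Among genes with more than 1 probe set these shares were 11.1% and 30.7%, and 5 of the 19 genes have 1 probe set. Pcna, the DNA polymerase clamp, read 12.15, 12.21 and 12.31 (12.22 ± 0.077), Top2a read 10.40, 10.40 and 10.48 (10.43 ± 0.049), and Mki67, which encodes the Ki-67 antigen of cycling cells, read 10.05, 10.00 and 10.18 (10.07 ± 0.091). Of the 8 high genes, 5 (Rrm2, Cdc20, Mcm7, Mcm4 and Mcm5) were read by probe sets marked as able to bind related transcripts. Among 26 regulators of the cycle, 6 (23.1%) were high, 15 moderate and 5 (19.2%) near the floor. The D-type cyclins Ccnd2 (12.97) and Ccnd1 (12.55) were high and Ccnd3 (7.03) moderate. Their partner Cdk4 was at 10.34, while the alternative partner Cdk6 was at 3.48. Inhibitors of the cycle also had signal, Cdkn1a (p21) at 11.25 and Cdkn1b (p27) at 10.04. The other probe set of Cdkn1a was moderate at 9.22, and that of Cdkn1b was near the floor at 3.19. Cdkn2a, a locus linked to senescence, had a mean of 4.39 and read 4.71, 3.94 and 4.53, under 4 on the second array. Myc had a mean of 8.86 and Mycn of 2.97. High signal was thus found for cyclins and, by 1 probe set each, for inhibitors of the same kinases.

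Of 20 genes of the PI3K, AKT and mTOR pathway, 3 were high, 14 moderate and 3 near the floor, with a median of 7.53. The small GTPase Rheb, which activates mTOR, had a mean of 11.70, the transcription factor Foxo3 of 10.54 and the insulin receptor substrate Irs1 of 10.09. Irs2 (3.80), Pik3cb (2.68) and Pik3cg (2.27) were near the floor.

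Of 24 genes of integrins and cadherins, which attach cells to the matrix and to each other, 4 were high, 9 moderate and 11 near the floor. The integrin chains Itgav read 12.22, 12.26 and 12.27 (12.25 ± 0.026) and Itgb8, with which it pairs, 11.20, 11.21 and 11.18 (11.20 ± 0.014). Itgb1 (11.15) and N-cadherin (Cdh2, 10.21) were the other high members, and Itga6, the laminin receptor chain of stem cells, was at 9.71. With the median over all probe sets, Itgb1 was near the floor, at 3.78. E-cadherin (Cdh1) stood at 2.27.

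Most listed receptors for transmitters were near the floor, and some carried signal. Of 20 glutamate receptor genes, 1 (5%) was high, 7 moderate and 12 (60%) near the floor. Over all genes, 7.10% were high and 48.6% near the floor. Grm5, a metabotropic receptor of neurons and young astrocytes, read 11.08, 11.16 and 11.05 (11.10 ± 0.053). The AMPA receptor subunits Gria2 (9.27), Gria3 (8.94) and Gria4 (8.01) were moderate, and Gria1 read 3.69, 4.41 and 3.84 (3.98 ± 0.38), across the floor threshold. The NMDA receptor subunits Grin2a to Grin2d had means of at most 2.30, whereas Grin3a, a further subunit, was moderate at 5.50. Of 11 GABA receptor genes, Gabrg1 (9.10), Gabra2 (7.70), Gabra4 (5.94) and Gabbr1 (5.90) were moderate and 7 (63.6%) were near the floor. Of 21 other G protein-coupled receptors, 13 (61.9%) were near the floor. The endothelin receptor Ednrb was high and read 11.29, 11.31 and 11.25 (11.28 ± 0.028). The PACAP receptor Adcyap1r1 (8.49) and the adhesion receptor Adgrg1 (9.03) were moderate, and dopamine, serotonin and opioid receptor genes of the list were near the floor.

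The N2 supplement in which these cells were grown supplies insulin, transferrin, putrescine, progesterone and selenium, and genes that handle them were surveyed. Insr (8.02) and Igf1r (7.27), through which insulin acts, were moderate. The transferrin receptor Tfrc read 10.82, 10.87 and 11.03 (10.91 ± 0.11), and the ferritin chain Fth1 read 14.36, 14.37 and 14.33 (14.35 ± 0.017), while the iron exporter Slc40a1 stood at 2.27. Of 7 polyamine genes, 4 were high and 3 moderate, including Odc1 (10.72), the enzyme that makes putrescine. Its inhibitor Oaz1 was at 12.33, and Sat1, which acetylates polyamines for breakdown, at 11.44. The nuclear progesterone receptor Pgr was at 2.27 on each array, whereas the membrane component Pgrmc1 read 10.89, 11.02 and 10.88 (10.93 ± 0.077). Of 14 selenium genes, 4 were high, among them the transport protein Selenop (12.76 ± 0.0099) and the peroxidase Gpx4 (11.31).

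Of 28 genes of glucose uptake and glycolysis, 10 were high, 7 moderate and 11 near the floor. Pgk1 read 13.93, 13.91 and 13.94 (13.92 ± 0.015), and its sperm counterpart Pgk2 had a mean of 2.31. Tpi1 (13.36), Aldoa (13.27), Pgam1 (12.59) and Pkm (12.25) were high, and the muscle and liver counterparts Pgam2 (2.28) and Pklr (2.29) were near the floor. The forms of phosphofructokinase did not divide in this way, since the muscle form Pfkm (9.82), the liver form Pfkl (9.41) and the platelet form Pfkp (6.96) were all moderate. Lactate dehydrogenase gave 12.74 for Ldha and 11.10 for Ldhb, against 2.29 for the testis form Ldhc. Glucose transporter Slc2a1 (GLUT1) read 11.36, 11.30 and 11.35 (11.33 ± 0.032), Slc2a3 had a mean of 9.36, and the liver and muscle transporters Slc2a2 and Slc2a4 stood at 2.27. Monocarboxylate transporter Slc16a1 was at 10.05 and its relatives Slc16a7 and Slc16a3 were at 2.57 and 2.36. Among creatine kinases, the brain form Ckb was at 13.54, and the muscle form Ckm (2.76) and the mitochondrial forms Ckmt1 (2.47) and Ckmt2 (2.27) were near the floor.

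Of 16 genes of pyruvate entry and the citric acid cycle, 10 were high, 4 moderate and 2 near the floor, with a median of 10.58, and the 10 include the cytosolic enzymes Mdh1 (mean 12.28) and Idh1. Malate dehydrogenase Mdh2 read 13.45, 13.39 and 13.33 (13.39 ± 0.064), and citrate synthase Cs read 13.08, 12.93 and 13.00 (13.01 ± 0.076). Of the kinases that shut pyruvate dehydrogenase, Pdk1 was high (10.33), Pdk3 (7.95) and Pdk2 (5.94) moderate, and Pdk4 near the floor (2.28). The general forms of respiratory subunits were high, Cox6a1 at 14.20, Cox4i1 at 13.22, Cox7a2 at 13.14 and Cox8a at 10.63. Their alternative forms did not behave alike. Cox7a1 (2.29) and Cox4i2 (2.27) were near the floor, but Cox8b and Cox6a2 were moderate. Cox8b read 7.97, 8.08 and 8.08 (8.04 ± 0.064), and Cox6a2 read 6.19, 5.86 and 6.11 (6.05 ± 0.17). The other probe set of Cox6a2 was near the floor, at 2.28.

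All 8 serine and folate enzymes exceeded 4, led by Phgdh, the first enzyme of serine synthesis, at 11.62, 11.52 and 11.63 (11.59 ± 0.056). Of 8 genes of fatty acid and sterol synthesis, 5 were high, 2 moderate and 1 near the floor. The desaturase Scd2 read 14.69, 14.66 and 14.63 (14.66 ± 0.029, rank 8), and Hmgcs1, of the cholesterol pathway, read 13.53, 13.50 and 13.52 (13.51 ± 0.015). Acacb, the acetyl-CoA carboxylase that guards mitochondrial fat oxidation, was at 2.27, and its cytosolic relative Acaca was at 7.33. All 8 genes of fatty acid oxidation and ketone use exceeded 4, with Hadhb at 12.19. Glutamate dehydrogenase Glud1 (11.50) and asparagine synthetase Asns (11.46) were high, and transketolase (Tkt), of the pentose phosphate pathway, was at 13.85. In contrast, 4 of 6 genes of gluconeogenesis were near the floor, and Pck2, the mitochondrial carboxykinase, was at 9.24 while the cytosolic Pck1 was at 2.28.

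**Figure D5:**
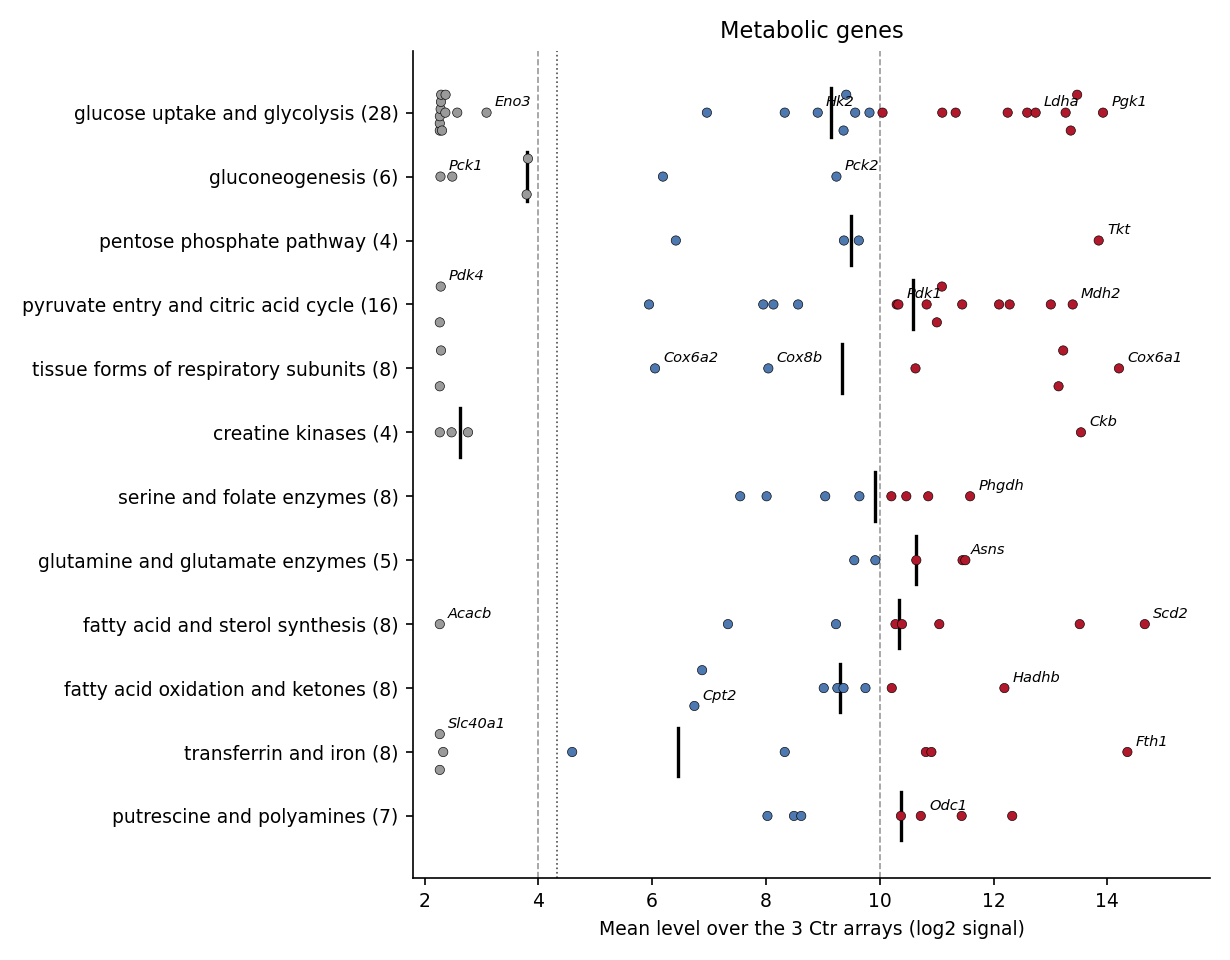
Mean level over the 3 Ctr arrays (x axis, log2 signal) of the genes of 12 metabolic lists, 1 point a gene (red high, blue moderate, grey near the floor; like values spread vertically), with list medians as black bars, dashed lines at 4 and 10 and a dotted line at the median of all genes, 4.33. The citric acid cycle list has a median of 10.58, and in glycolysis, respiratory subunits and creatine kinases the points fall into a group with signal and a group near 2.27.

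The 40 genes of highest signal were dominated by translation. Of these, 20 encode cytosolic ribosomal proteins, led by Rps29 (15.18) and Rpl13a (15.13), and Eef1a1, the elongation factor that delivers amino acids, read 15.16, 15.13 and 15.17 (15.15 ± 0.018). ND5, a mitochondrial subunit of complex I, was at 14.91, and the cytoskeletal genes Actg1 (14.70), Actb (14.19), Tmsb4x (14.17), Tmsb10 (14.03) and Cfl1 (13.93) were among the 40. Cell identity showed in Vim, Fabp7 and Fabp5, a further fatty acid-binding protein that read 14.51, 14.50 and 14.39 (14.47 ± 0.065). Tpt1 (14.73), Txn1 (13.97), Eef1b2 (13.81), a subunit of an elongation factor, Hspa8 (13.79) and Cycs (13.78) were also among the 40. Among the 100 highest genes, 95 were shared by all 3 arrays. Of 51 genes with the symbol of a cytosolic ribosomal protein, 39 were high and 6 near the floor, and the latter included Rps16 and Rps27, which every cell needs, so a level near the floor can also be that of a probe set.

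The spread between arrays was small in every band. The median SD was 0.059 among high genes and 0.083 among moderate genes, and 94.9% and 98.3% of them lay in the same band on all 3 arrays. Near the floor, 6226 of 8843 genes had equal values on all 3 arrays, so the SD there says little about the precision of the measurement. Among genes with a mean of at least 4, the largest SD was that of Zfp3, a zinc finger gene, which read 3.70, 3.70 and 5.39 (4.26 ± 0.97), followed by Gtpbp6 (SD 0.71), Rrp12 (0.64), Zcchc10 (0.60) and Fam227b (0.59). Tmem39b, Inip, Celf4, Prkaa1 and Brdt completed the first 10, and their SDs were between 0.53 and 0.59. All 10 had moderate means, from 4.08 to 6.84, and none belonged to the lists of identity or signalling genes. The thresholds cut through a continuous range. Slc39a1, Fez1 and Nudt4 lay just inside the high band at 10.00, and Mxi1, Sbf2 and Srp72 just outside it, also at 10.00 after rounding. Cacng4, Hlx and Pelo lay just above the floor threshold, and 4930456A14Rik, Mns1 and Aifm2 just under it, all at 4.00 after rounding.

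The band of a gene also moved with the number of its probe sets. Of 9183 genes with 1 probe set, 3.21% were high and 66.2% near the floor, and of 9010 genes with more, 11.1% and 30.7%. Members of the lists had a median of 2 probe sets, beside 1 over all genes, and 16.1% of the 713 distinct members were high. Among members with 1 probe set, 10.7% of 271 were high. The number of probe sets thus moved with the counts given for the lists, and its part in them was not tested.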

How the data were processed

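RNA of the 3 Ctr cultures was extracted with Trizol, labelled with biotin and hybridised by the authors to Affymetrix Mouse Genome arrays. The values they deposited are log2 signals after GCRMA, which the submitters' processing notes name without a version and which corrects background by probe sequence, normalises quantiles across arrays and summarises probe sets. They were used as deposited. GCRMA moves weak signals to a common lowest value, so levels near the floor have no order. Which arrays were normalised together is not given in the sources used here. The number of arrays limits the precision.

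Of 45101 probe sets, 64 controls were left out. Of the other 45037, 34945 carry 1 gene symbol, 932 several and 9160 none in the platform annotation. Symbols were updated and positions taken from RefSeq (GRCm38.p6) through Entrez numbers for 34741 probe sets, which gave 18193 genes, 18032 of them matched. Probe sets whose names mark them as shared between transcripts (_x_at and _s_at) are called able to bind related transcripts. Means, SDs and bands were computed with Python 3.11.15, numpy 2.4.6 and pandas 2.3.3, and the banding was tested on simulated data. No test between conditions was made.

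Named genes are the 4 markers, the 40 genes of highest mean, members of 54 gene lists, the 10 genes of largest SD with a mean of at least 4, and the 3 genes nearest each side of both thresholds. The members and lists were chosen with earlier results of these data known. Other genes, the families by symbol, the promoter motifs and the windows shown were chosen after the values were seen. Some genes are not analysed here. Alternatives were the mean or median over a gene's probe sets, omission of shared probe sets, omission of each array, the lowest array, linear averaging and other thresholds.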

Additional observations from a re-analysis of the deposited data

How the results depend on the processing

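No paired analysis was possible because the profile comes from 1 condition. Leaving out each Ctr array in turn gave 1284 to 1299 high, 8048 to 8067 moderate and 8842 to 8846 near-floor genes and 114 to 115 high list members, and it moved no list count by over 1.5 times. The high band depended on how a gene's probe sets were combined. It held 569 genes with the mean over all probe sets and 654 with the median, and the high list members then numbered 65 and 73 in place of 115. Of 713 list members, 90 and 95 changed band under these settings. With the high threshold at 9 or 11, 2332 or 629 genes were high, and 70 list members were high at 11. Leaving out probe sets able to bind related transcripts left 1114 high genes, and the lowest of the 3 arrays 1225. The counts of moderate and near-floor genes stayed within 1.5 times under every alternative tried. Of the 21 stem cell markers, 8 to 11 were high under every alternative. All 9 endothelial genes stayed near the floor under every alternative. No depth can be given for arrays, and signals close to the floor limit statements on absence.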

Other observations

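Families of genes grouped by symbol divided between the bands. All 39 olfactory receptor genes and all 32 vomeronasal receptor genes, which belong to sensory neurons of the nose, were near the floor, as were all 23 defensin genes of epithelial defence. Of 48 keratin genes, 45 were near the floor and 3 were moderate. In the families of energy and protein supply, all 17 genes with symbols of ATP synthase subunits were high (median 11.94). So were 31 of 35 genes with symbols of NADH dehydrogenase subunits (median 11.21) and 25 of 40 with symbols of proteasome subunits (median 10.42). The same held for 8 of 9 genes of the chaperonin that folds actin and tubulin (median 11.65). Symbols also take in genes that are not such subunits, among them Psmc3ip and Ndufa4l2. All 76 genes of mitochondrial ribosomal proteins exceeded 4, with 12 high and 64 moderate, and so did all 19 aminoacyl-tRNA synthetase genes, with 8 high.

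Sex-linked genes carried signal of male cells on each Ctr array. Eif2s3y, a translation factor gene of the Y chromosome, read 8.45, 8.60 and 8.61 (8.55 ± 0.092, SD, n = 3), Kdm5d, a histone demethylase, read 7.20, 7.33 and 7.43 (7.32 ± 0.11), and Uty read 6.80, 6.90 and 6.86 (6.85 ± 0.051). Xist, the RNA that silences an X chromosome in female cells, stood at 2.27 in all 3 of its probe sets. Over chromosomes 1 to 19 the share of high genes ran from 4.74% on chromosome 7 to 8.87% on chromosome 3, and it was 9.56% of 617 genes on the X chromosome, beside 7.10% over all genes. These shares are descriptions with no test.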
